A study of Homo sapiens with 21 samples.

Results

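U10 and U100 are human ovarian carcinoma cell lines that were made resistant to olaparib, and UWB1.289 is the parental cell line from which both were derived. They account for 3 of the 21 RNA libraries of the series, 1 library per line, and were taken by their cell line and drug labels. The series compared 7 parental with 10 treatment-resistant cancer cell lines to ask whether changes resembling an epithelial-to-mesenchymal transition (EMT) accompany drug resistance. UWB1.289 carried the status sensitive with no drug, and both derivatives the status resistant with the drug olaparib; the resistant lines were obtained by months of exposure to rising doses. What the numbers in the names U10 and U100 stand for, and whether olaparib was in the medium at harvest, is not given in the sources used here. All 3 lines were grown in the same medium, and 1 library stands for each line, so every difference below is a difference between libraries with no replicate check and no p-value.

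Olaparib blocks poly(ADP-ribose) polymerase (PARP), the enzyme family that marks DNA breaks for repair, and traps it on DNA. Cells without functional BRCA1, for which UWB1.289 is known, repair the resulting broken replication forks poorly and are killed. Known routes to resistance include regained homologous recombination, loss of the 53BP1-shieldin complex that blocks resection of broken ends, protection of stalled forks, loss of PARP1 and drug efflux. Broken DNA and DNA in the cytosol are also known to switch on inflammatory signalling, through the transcription factor NF-κB, and interferon signalling. NF-κB binds κB sites near chemokine and cytokine genes, and the interferon-activated complex binds the interferon-stimulated response element (ISRE).

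Counts per gene were divided by the total on genes and given as counts per 1000000 (CPM). Differences are log2 fold changes against UWB1.289 on the log2(CPM + 1) scale, which understates the change of low genes. A gene was counted when its mean over the 3 libraries was at least 1 CPM, which left 14583 genes, and was called when it differed at least 2-fold in the same direction in both resistant lines. The 3 libraries held 11621919 counts on genes in UWB1.289, 10256404 in U10 and 13108959 in U100, so that 3 counts came to 0.258, 0.293 and 0.229 CPM. Intervals of a ratio are exact 95% intervals that cover counting error only. Replicate libraries of other lines in the series differed by at least 2-fold in 0.00714% of genes in HCC4006ER, 0.084% in HepG2S3, 5.13% in HepG2 and 17.5% in HCC4006P1, where replicate 1 had no counts on any of the 353 genes of chromosome 8, 432 of chromosome 9 and 350 of chromosome X that reached 5 CPM in either replicate. The ovarian label was checked against PAX8, the Müllerian lineage factor, at 357 CPM in UWB1.289, 386 CPM in U10 and 452 CPM in U100, and EPCAM at 598, 504 and 581 CPM, while WT1 stayed under 0.5 CPM in each, ESR1 was at most 0.153 CPM and EMX2 was at 0. Of 9 counted markers of ovarian epithelium and serous carcinoma, 2 were at least 2-fold lower in U10 (4.97% of all counted genes) and none in U100 (1.72%). The 2 were MUC16, which encodes CA125, at 103, 30.1 and 95.3 CPM and KRT8, a simple epithelial keratin, at 1779, 768 and 1101 CPM. The leukocyte genes CD3E, CD3D, MS4A1 and FCGR3A were at 0 in all 3 libraries and PTPRC was at most 0.344 CPM. Of the 2 counted leukocyte markers, CD14 had 4.47, 9.07 and 11.4 CPM, past 2-fold in U100, and CD68 16.3, 19.1 and 9.54 CPM. The 9 leukocyte markers summed to 21.8, 29.7 and 22.96 CPM, and their part in the results was not tested. SERPINA1, which encodes an acute-phase protein and was the 1 counted gene of 8 hepatocyte markers, had 29.6, 44.1 and 188 CPM, and none of 5 lung markers was counted.

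U10 had 908 genes higher (6.23% of those counted) and 725 lower (4.97%), and U100 had 933 higher (6.4%) and 251 lower (1.72%). In both lines together, 463 genes were higher (3.17%) and 163 were lower (1.12%). The resistant lines share the UWB1.289 library, so an error in it would enter both. Of the genes higher in both, 440 were protein-coding, and 58 were past 4-fold and 13 past 8-fold in both lines. Of those lower in both, 144 were protein-coding, 15 were past 4-fold and 3 past 8-fold. The counting interval lay beyond 1 in both lines for all 463 and all 163. The same counts chose these genes by a 2-fold threshold, so the intervals are no separate check. The median log2 fold change of the higher genes was 1.53 in U10 and 1.48 in U100. That of the lower genes was -1.62 in U10 and -1.26 in U100, and 122 of the 163 had the larger decrease in U10. The medians over all counted genes were -0.01 and 0.07. At the threshold, the closest genes inside had a smaller change of 1.00 and those outside 0.997 among the higher and 0.999 among the lower genes.

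**Figure D1:**
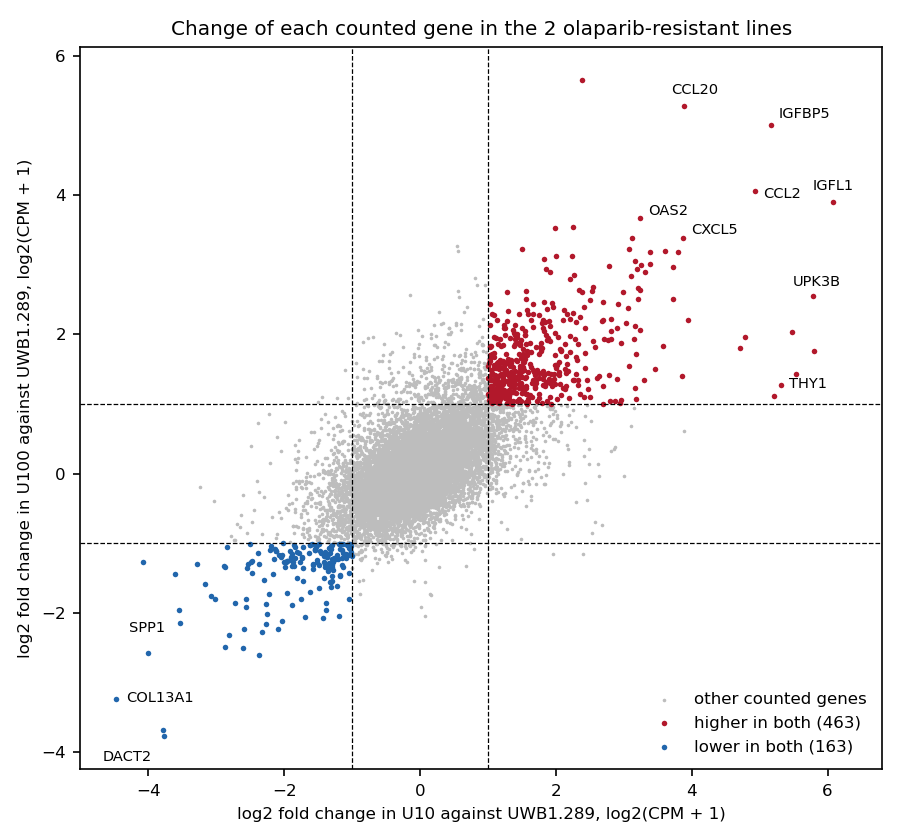
Log2 fold change of each of the 14583 counted genes against UWB1.289 in U10 (horizontal) and U100 (vertical), log2(CPM + 1), with dashed lines at 2-fold. The 463 genes higher in both (red) outnumber the 163 lower in both (blue); both axes use the same UWB1.289 library.

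Among the 12 protein-coding genes with the largest shared increase, 5 encode chemokines and 3 are interferon-induced. IGFBP5, which binds insulin-like growth factors, had 0.516 CPM in UWB1.289 (6 counts), 53.3 CPM in U10 and 47.6 CPM in U100. It was 103-fold higher in U10 (47.2 to 283) and 92.2-fold higher in U100 (42.1 to 252). IGFL1, a secreted member of the IGF-like family, had 3 counts in UWB1.289, 83.7 CPM in U10 and 17.8 CPM in U100. With so few parental counts its ratio was loosely bounded, 324-fold in U10 (110 to 1575) and 68.9-fold in U100 (23.3 to 336), and U100 stood at 0.212 times the level of U10 (0.183 to 0.246). NCAM1, a neural cell adhesion molecule, rose from 16.3 CPM to 179 CPM in U10 and 155 CPM in U100, log2 fold changes of 3.38 and 3.18. KCNIP1, a regulator of potassium channels, rose from 1.20 CPM (14 counts) to 29.7 and 18.9 CPM. The other 8 of the 12 protein-coding genes with the largest shared increase were the chemokines CCL2, CCL20, CXCL5, CXCL8 and CXCL1 and the interferon-induced genes OAS2, XAF1 and IFI44L.

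**Figure D2:**
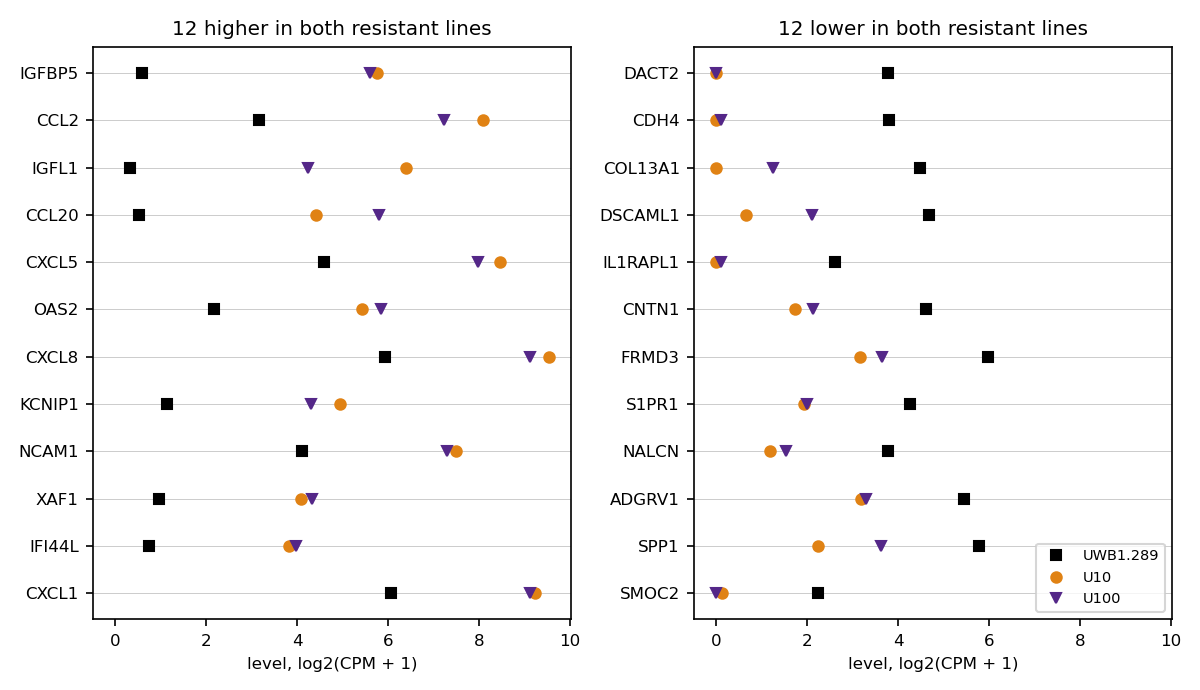
Level, log2(CPM + 1), in UWB1.289 (black squares), U10 (orange circles) and U100 (purple triangles) of the 12 protein-coding genes with the largest shared increase (left) and decrease (right), 1 library each. Both resistant lines lie on the same side of the parental line for all 24, by the rule that chose them, and DACT2 is at 0 in both resistant lines.

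Of 27 counted inflammatory cytokine and NF-κB genes, 19 were higher in both resistant lines and none was lower, beside 3.17% and 1.12% of all counted genes. Their median log2 fold change was 1.56 in U10 and 1.86 in U100. The summed level of the list was 1780 CPM in UWB1.289, 7960 CPM in U10 and 7258 CPM in U100. This list and the others below were chosen with earlier results of these data known. CCL2, which attracts monocytes, had 8.002 CPM in UWB1.289, 272 CPM in U10 and 149 CPM in U100, a rise of 34.0-fold (27.7 to 42.3) and 18.6-fold (15.1 to 23.2). CCL20, which attracts CCR6-bearing lymphocytes and dendritic cells, had 5 counts in UWB1.289 and rose to 20.2 CPM in U10 and 54.5 CPM in U100, being 2.70 times higher in U100 than in U10 (2.31 to 3.17). The neutrophil-attracting chemokines moved with them. CXCL8 rose from 60.1 CPM to 743 CPM in U10 and 558 CPM in U100, CXCL1 from 66.3 CPM to 601 and 557 CPM, and CXCL5 from 23.0 CPM to 349 and 250 CPM. The fold changes were 12.4 (11.4 to 13.4) and 9.27 (8.58 to 10.0) for CXCL8. CXCL2 and CXCL3 started from 3.10 and 2.58 CPM and rose less in U10, by 1.55 and 2.20 on the log2 scale, than in U100, by 2.62 and 2.80.

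Cytokines and growth factors of the list rose as well. IL6, the acute-phase cytokine, had 4.90 CPM in UWB1.289, 43.7 CPM in U10 and 30.8 CPM in U100. CSF2, which encodes GM-CSF, rose from 2.32 CPM to 30.4 and 19.8 CPM, and CSF1, the macrophage growth factor, from 241 CPM to 615 and 751 CPM. Both resistant lines lay above the parental line for each of the 3. TNF rose from 14.3 CPM to 32.9 CPM in U10 and 39.4 CPM in U100, and IL32 from 64.4 CPM to 275 and 221 CPM. The acute-phase and secreted antimicrobial genes followed: LCN2, an iron-scavenging protein, rose from 276 CPM to 2879 CPM in U10 and 2221 CPM in U100, and SAA1 from 1.81 CPM to 36.1 and 21.0 CPM. SAA1 and its neighbour SAA2 are near-identical, so their split between the 2 genes is uncertain. ICAM1, a leukocyte adhesion receptor, rose from 151 CPM to 578 and 410 CPM. TNFAIP3, a feedback inhibitor of NF-κB, rose from 90.8 CPM to 213 and 280 CPM.

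The other 8 genes of the list, the NF-κB subunits among them, were not called in both lines. NFKBIA, the inhibitor that holds NF-κB in the cytoplasm, had 103 CPM in UWB1.289, 196 CPM in U10 and 185 CPM in U100, log2 fold changes of 0.93 and 0.84. The subunit genes NFKB1, NFKB2 and RELB had log2 fold changes of 0.59, 0.28 and 0.72 in U10 and of 0.76, 0.42 and 0.97 in U100. IL18, a cytokine activated by inflammasomes, was nearest to level, at 110, 101 and 114 CPM.

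The interleukin-1 system, which signals to NF-κB, was represented on both the ligand and the receptor side. The genes named here beyond the ligands were chosen after their values were seen. IL1A rose from 23.3 CPM to 53.04 CPM in U10 and 87.2 CPM in U100, and IL1B from 2.84 CPM to 10.3 and 20.7 CPM. Both ligands were higher in U100 than in U10, 1.64 times for IL1A (1.48 to 1.82) and 2.01 times for IL1B (1.60 to 2.54). IL1RN, the natural antagonist of the receptor, rose from 0.860 CPM (10 counts) to 3.51 and 7.48 CPM. IL1RAP, the co-receptor needed for signalling, rose from 33.6 CPM to 107 and 84.4 CPM, and the decoy receptor IL1R2 from 0.430 CPM (5 counts) to 3.61 and 2.82 CPM. Other sensors and effectors among the 463 were TLR2, a receptor for bacterial lipoproteins, at 2.93, 17.9 and 27.4 CPM, and TLR3, a receptor for double-stranded RNA, at 1.98, 6.82 and 6.64 CPM. CASP1, the protease that matures IL-1β, had 2.50 CPM in UWB1.289, 7.51 CPM in U10 and 20.3 CPM in U100. C3, the central complement protein, rose from 513 CPM to 1221 and 1421 CPM.

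Of 41 counted interferon-stimulated genes, 14 were higher in both lines and none was lower, beside 3.17% and 1.12% of all counted genes. The medians were 0.75 in U10 and 0.97 in U100, and 39 of 41 in U10 and 41 of 41 in U100 lay above 0, against 7107 and 8218 of the 14583 counted genes. OAS2, which senses double-stranded RNA and activates RNase L, had 3.53 CPM in UWB1.289, 41.7 CPM in U10 and 56.5 CPM in U100, 11.8-fold (8.58 to 16.7) and 16.02-fold (11.7 to 22.5). XAF1, a pro-apoptotic interferon-induced gene, rose from 0.946 CPM (11 counts) to 15.9 and 19.2 CPM. IFI44L rose from 0.688 CPM (8 counts) to 13.2 and 14.8 CPM. XAF1 and IFI44L did not differ between the resistant lines beyond counting error, with ratios of U100 to U10 of 1.21 (0.989 to 1.48) and 1.12 (0.898 to 1.41). MX1, an inhibitor of RNA virus replication, rose from 10.2 CPM to 49.5 and 53.8 CPM, IFI6 from 5.94 CPM to 30.9 and 31.4 CPM, and IFI27 from 7.92 CPM to 44.2 and 54.2 CPM. The chemokine CXCL10 rose from 0.602 CPM (7 counts) to 5.56 and 5.26 CPM.

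The remaining 27 of the 41 were not called in both lines. STAT2 and IRF9, transcription factors of the interferon response, had log2 fold changes of 0.16 and 0.22 in U10 and 0.45 and 0.85 in U100. ISG15, IFIT1 and IFIT2, usual members of an interferon response, reached 0.97, 1.288 and 1.27 in U10 and 0.65, 0.82 and 0.74 in U100, so that none was called in both. IFI44, OAS1, OASL, IFIH1, HERC6 and TRIM22 were past 2-fold in U100 alone, and that difference between the lines was not tested. Among 20 genes of MHC class I antigen presentation, PSMB9, an immunoproteasome subunit, was the 1 called, with 4.13, 11.1 and 13.96 CPM. Of 25 counted PARP family and ADP-ribose genes, 1 was higher and none lower, and it was the interferon-induced PARP14, at 57.1, 122 and 171 CPM. Both of these single calls were close to the 3.17% of all counted genes that were higher in both lines.

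**Figure D3:**
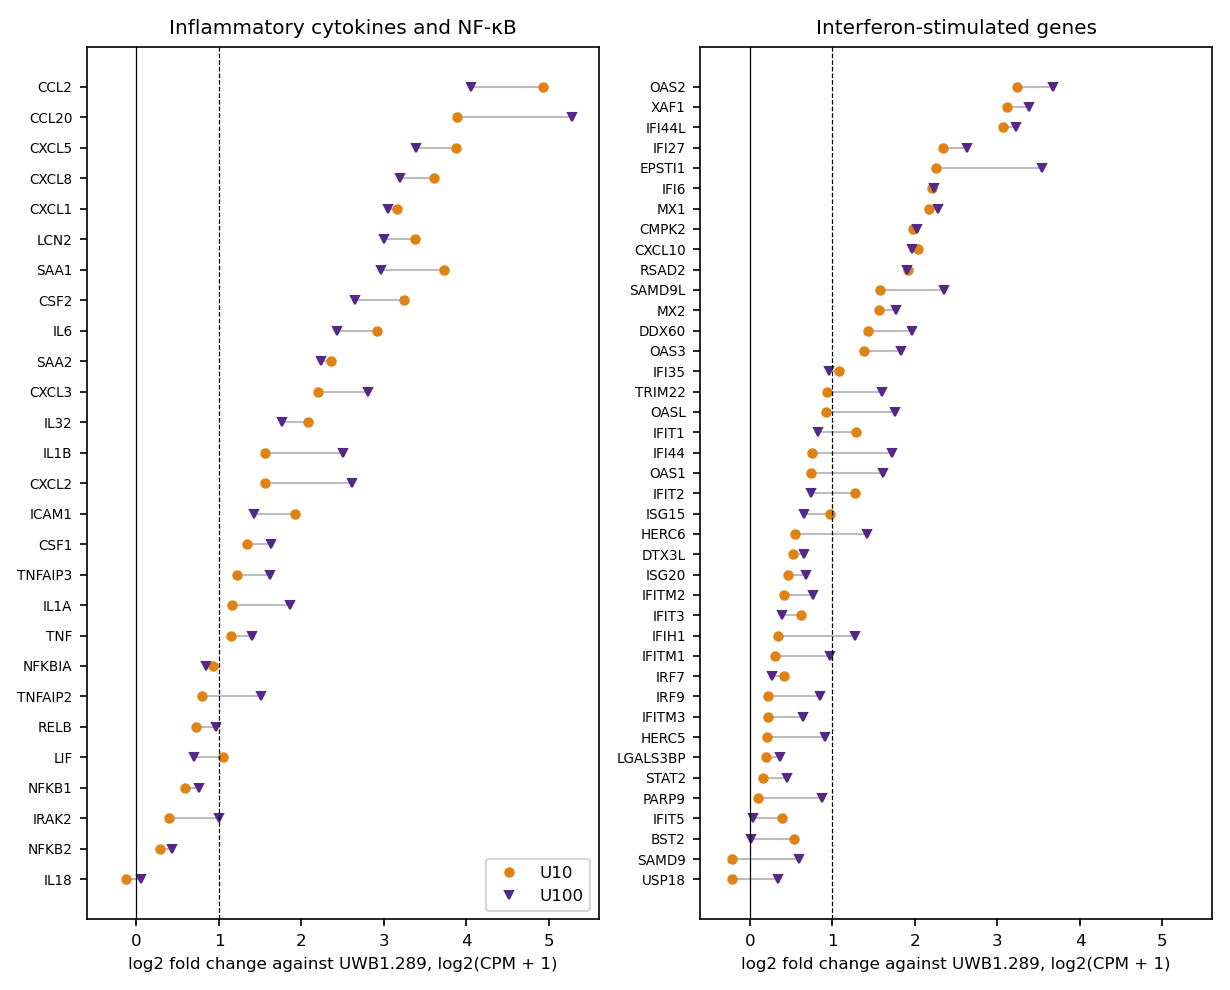
Log2 fold change against UWB1.289, log2(CPM + 1), in U10 (orange circles) and U100 (purple triangles) of the 27 counted inflammatory genes (left) and of the counted interferon-stimulated genes but 1 (right), ordered by the smaller change, with a dashed line at 2-fold. In the left panel 19 genes have both points right of the dashed line, and in the right panel 14.

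The promoters of the inflammatory and interferon genes with the largest shared increases are shown because the members of each list moved together. They come from RefSeq on GRCh38.p14, not the hg19 build used for the counts, and run from 250 bases before to 50 after the gene start, 5′ to 3′ on the gene's strand. Entries were matched for 335 of the 463 higher and 130 of the 163 lower genes, and the 3 largest in each list with an entry are printed. Capitals mark matches on either strand to the κB consensus or to the ISRE core. The κB consensus was GGGRNWYYCC, where R is A or G, W is A or T, Y is C or T and N is any base. The ISRE core is GAAA, any 2 bases and GAAA. CCL20 is at chr2:227813592-227813891 (+), CXCL5 at chr4:73998628-73998927 (-) and CXCL8 at chr4:73740319-73740618 (+). XAF1 is at chr17:6755796-6756095 (+), IFI44L at chr1:78620198-78620497 (+) and IFI27 at chr14:94110486-94110785 (+).
CCL20: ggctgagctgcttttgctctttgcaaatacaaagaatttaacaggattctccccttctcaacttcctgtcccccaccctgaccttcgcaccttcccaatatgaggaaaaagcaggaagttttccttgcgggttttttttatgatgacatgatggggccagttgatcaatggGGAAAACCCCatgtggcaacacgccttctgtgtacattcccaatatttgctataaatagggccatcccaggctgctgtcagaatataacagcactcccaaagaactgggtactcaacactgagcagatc
CXCL5: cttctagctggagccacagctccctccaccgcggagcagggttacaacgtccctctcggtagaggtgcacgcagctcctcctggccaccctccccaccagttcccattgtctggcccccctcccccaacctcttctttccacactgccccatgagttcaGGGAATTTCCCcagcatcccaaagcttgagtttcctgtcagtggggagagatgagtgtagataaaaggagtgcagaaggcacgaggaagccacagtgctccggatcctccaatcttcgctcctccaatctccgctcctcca
CXCL8: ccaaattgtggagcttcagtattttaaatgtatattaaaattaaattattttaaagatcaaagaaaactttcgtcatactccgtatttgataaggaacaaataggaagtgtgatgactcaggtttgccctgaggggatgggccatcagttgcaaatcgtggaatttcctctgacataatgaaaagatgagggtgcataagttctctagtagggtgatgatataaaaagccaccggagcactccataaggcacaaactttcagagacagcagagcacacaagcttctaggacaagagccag
XAF1: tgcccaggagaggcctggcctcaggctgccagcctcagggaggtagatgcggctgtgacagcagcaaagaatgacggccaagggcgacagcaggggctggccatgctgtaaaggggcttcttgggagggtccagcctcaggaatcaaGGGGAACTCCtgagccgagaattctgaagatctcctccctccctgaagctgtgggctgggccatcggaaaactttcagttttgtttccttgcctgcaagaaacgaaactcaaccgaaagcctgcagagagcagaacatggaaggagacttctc
IFI44L: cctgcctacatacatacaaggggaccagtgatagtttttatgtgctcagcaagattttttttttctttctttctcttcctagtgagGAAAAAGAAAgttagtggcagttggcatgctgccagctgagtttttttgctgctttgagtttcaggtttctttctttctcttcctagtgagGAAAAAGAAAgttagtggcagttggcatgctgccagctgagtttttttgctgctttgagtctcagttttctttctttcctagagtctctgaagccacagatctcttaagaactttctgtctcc
IFI27: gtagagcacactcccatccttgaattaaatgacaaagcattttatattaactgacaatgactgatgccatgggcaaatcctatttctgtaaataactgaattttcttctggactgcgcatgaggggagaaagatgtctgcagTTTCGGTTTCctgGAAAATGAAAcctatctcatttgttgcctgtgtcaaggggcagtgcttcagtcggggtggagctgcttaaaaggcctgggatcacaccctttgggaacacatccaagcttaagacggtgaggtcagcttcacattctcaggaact

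CCL20 held 1 match to the κB consensus, CXCL5 held 2 that overlap on opposite strands, and XAF1 held 1. IFI44L and IFI27 held 2 matches each to the ISRE core, and CXCL8 held no exact match to either motif in this window. Its stretch tggaatttcc differs from the κB consensus only at its first base, so the search misses sites that depart from the exact letters. The κB consensus was present in 9 of 15 promoters of the inflammatory genes higher in both lines, in 3 of 12 of the interferon genes, in 12.8% of the 335 promoters of all higher genes and in 5.38% of the 130 of the lower genes. It was present in 6.70% of 10709 promoters of counted genes and in 5.72% of all 27305 promoters. The ISRE core was present in 8 of 12 promoters of the interferon genes, in 0 of 15 of the inflammatory genes, in 6.87% of all higher and 3.85% of all lower genes. In counted genes it was present in 2.73% and in all promoters in 3.65%. Both lists were made of genes linked to NF-κB or to interferon, and the share among their uncalled members was not computed. The high shares may therefore come with list membership and do not bear on the change in these lines. These are matches of letters, and binding was not measured.

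FN1, which encodes fibronectin, had 1169 CPM in UWB1.289, 8186 CPM in U10 and 5449 CPM in U100, a rise of 7.00-fold (6.88 to 7.13) and 4.66-fold (4.58 to 4.75). Of 29 counted mesenchymal EMT genes, FN1, WNT5A, COL4A1, COL12A1 and VEGFC were higher in both and none was lower, while of 13 epithelial genes none was called. Among all counted genes, 3.17% were higher and 1.12% lower in both lines. COL16A1, a fibril-associated collagen, rose from 55.8 CPM to 750 and 323 CPM, and COL12A1 from 103 CPM to 719 and 277 CPM. COL4A1, a basement membrane collagen, rose from 124 CPM to 613 CPM in U10 and 335 CPM in U100. For these 3 collagens U100 reached 0.430, 0.385 and 0.547 times the level of U10. COL9A2 went the other way, with 5.59 CPM in UWB1.289, 19.8 CPM in U10 and 34.6 CPM in U100, 1.75 times the level of U10 (1.48 to 2.08). COL13A1 and COL17A1, both transmembrane collagens, fell, so 4 of 22 counted collagen genes were higher and 2 lower. VIM had 263, 221 and 208 CPM, CDH1 28.4, 33.8 and 42.0 CPM and CDH2 76.1, 157 and 135 CPM, and none of these 3 EMT markers was called in both lines.

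Several genes had far larger increases in U10 than in U100 although both passed 2-fold, and were named after their values were seen. THY1, a surface protein of fibroblasts and stem-like cells, had 3.18 CPM in UWB1.289, 165 CPM in U10 and 9.15 CPM in U100, and U100 had 0.0555 times the level of U10 (0.0457 to 0.0668). KRT17, a keratin of basal and stressed epithelium, had 2 counts in UWB1.289, 51.0 CPM in U10 and 3.81 CPM in U100. UPK3B, an epithelial surface protein of urothelium and mesothelium, had 0.516, 82.4 and 7.86 CPM. DDC, the decarboxylase that makes dopamine and serotonin, showed the opposite order, with 0 counts in UWB1.289, 4.19 CPM in U10 and 49.4 CPM in U100. LGR5, a stem-cell receptor of the Wnt pathway, also had 0 counts in UWB1.289, 10.0 CPM in U10 and 1.83 CPM in U100, at least 38.9-fold and 7.09-fold higher from a floor of 3 parental counts. THY1 was the 1 called gene among 10 fibroblast markers, whose summed level was 16.004, 193 and 27.5 CPM, while DCN and LUM were at 0 in all 3 libraries and COL3A1 and PDGFRA did not pass 0.1 CPM. Of the 4 fibroblast markers counted, 3 were at least 2-fold higher in U10 (6.23% of all counted genes) and 1 in U100 (6.4%). Beside THY1, COL1A2 had 0.344, 5.17 and 0.458 CPM and POSTN, which encodes periostin, 0.258, 6.05 and 0.610 CPM, while COL1A1 had 11.9, 16.8 and 16.6 CPM. COL1A2 and POSTN were under 1 CPM in UWB1.289 and U100 and passed the minimum mean only through U10. The count of 3 in U10 was therefore partly fixed by that minimum. Of 6 endothelial markers 3 were counted. All 3 were at least 2-fold higher in U100 (6.4% of all counted genes) and 1 of them in U10 (6.23%). CDH5, the vascular cadherin, rose from 9.03 CPM to 81.4 and 43.9 CPM, while KDR, a VEGF receptor, had 4.47, 6.24 and 18.8 CPM, VWF 1.38, 1.37 and 4.12 CPM and TEK at most 0.0763 CPM. The endothelial markers summed to 15.2, 89.2 and 68.4 CPM, and the part of fibroblast or endothelial cells in the results was not tested.

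DACT2, CDH4 and COL13A1 were among the genes with the largest shared decreases. DACT2, an inhibitor of Wnt and TGF-β signalling, had 147 counts (12.6 CPM) in UWB1.289 and 0 counts in U10 and U100, at least 43.2-fold and 55.3-fold lower from a floor of 3 counts. CDH4, the retinal cadherin, had 12.8 CPM in UWB1.289, 0 counts in U10 and 1 count in U100, at least 43.8-fold lower in U10 and 168-fold lower in U100 (29.7 to 6682). COL13A1 had 21.3 CPM, 0 counts and 1.37 CPM. All 3 genes had at least 147 counts in the parental library. DSCAML1 and CNTN1, neural adhesion molecules, fell from 24.5 CPM to 0.585 and 3.28 CPM and from 23.6 CPM to 2.34 and 3.36 CPM. IL1RAPL1, a synaptic member of the interleukin-1 receptor family, had 5.08 CPM in UWB1.289, 0 counts in U10 and 1 count in U100. S1PR1, a sphingosine-1-phosphate receptor, fell from 18.2 CPM to 2.83 and 2.98 CPM. SPP1, which encodes osteopontin, fell from 53.6 CPM to 3.71 CPM in U10 and 11.3 CPM in U100, 14.5-fold (10.4 to 20.6) and 4.75-fold (3.96 to 5.72). FRMD3, NALCN, ADGRV1 and SMOC2 completed the 12 protein-coding genes with the largest shared decrease. Among lncRNAs, MIR100HG, the host of miR-100 and let-7a-2, fell from 74.6 CPM to 5.46 and 18.5 CPM, and ZFHX4-AS1 fell from 9.21 CPM to 0.975 and 0.687 CPM.

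Mitotic genes made up a further group of the decreases. CCNB2, cyclin B2, had 103 CPM in UWB1.289, 24.4 CPM in U10 and 22.9 CPM in U100, 4.21-fold (3.67 to 4.85) and 4.49-fold (3.95 to 5.11) lower. KIF20A, a kinesin of cytokinesis, fell from 181 CPM to 48.4 CPM in both, and HMMR, a spindle-associated protein, from 464 CPM to 98.3 and 139 CPM. PTTG1, which encodes the mitotic protein securin, fell from 258 CPM to 83.5 and 78.6 CPM. The 2 resistant lines did not differ beyond counting error for CCNB2, with a ratio of U100 to U10 of 0.939 (0.791 to 1.11), or for KIF20A, at 1.00 (0.889 to 1.13). These genes led to a list of 65 G2/M and spindle genes, written after such values were seen. Of the 65, 17 were lower in both and none was higher, beside 1.12% and 3.17% of all counted genes. The medians were -0.73 in U10 and -0.83 in U100. Only 3 of 65 in U10 and 1 of 65 in U100 lay above 0. MKI67, the proliferation marker, fell from 963 CPM to 425 and 350 CPM, and CCNB1, cyclin B1, from 274 CPM to 107 and 122 CPM. TOP2A, PLK1 and CDK1 were not called in both, with log2 fold changes of -0.53, -0.10 and -0.21 in U10 and -0.45, -1.10 and -0.79 in U100. Of 42 genes of the wider cell cycle and DNA replication list, 4 were lower and 1 higher, with medians of 0.02 and -0.25. In bulk RNA, fewer cells in mitosis and less of these transcripts per cell cannot be told apart.

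**Figure D4:**
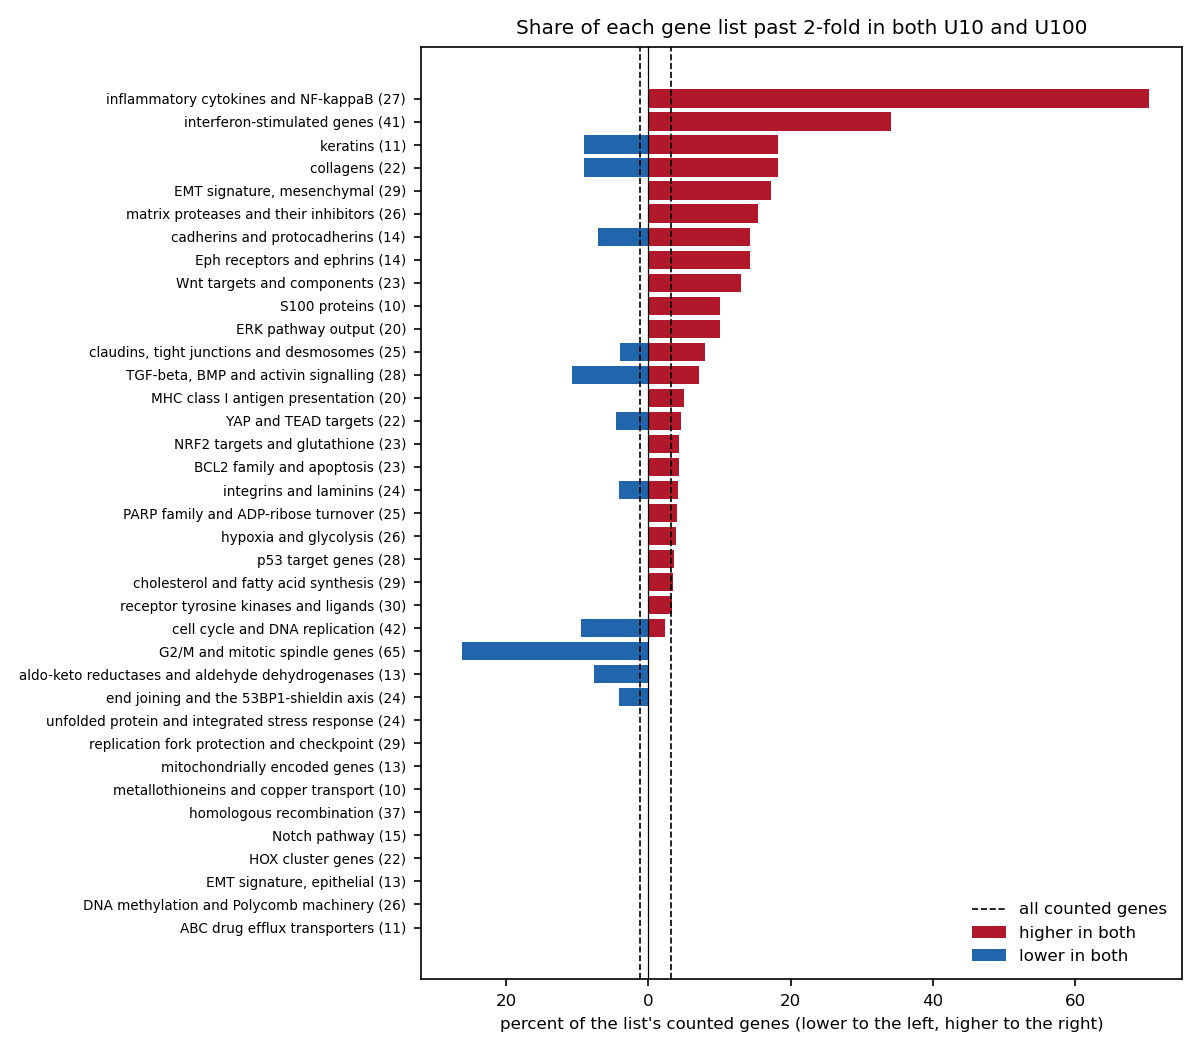
Percent of the counted genes of each list called in both U10 and U100, higher to the right (red) and lower to the left (blue), with the number counted in parentheses and dashed lines at 3.17% and 1.12% of all counted genes; lists with at least 10 counted genes are drawn. The inflammatory list (19 of 27) and the interferon list (14 of 41) reach farthest right and the G2/M list (17 of 65), which was written after its leading genes were seen, farthest left. The other lists were also chosen with earlier results of these data known.

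Lists of the known resistance routes held few called genes, where 3.17% of all counted genes were higher and 1.12% lower in both lines. At these shares a list of this size holds few or none, so the counts do not set the routes apart. Of 37 counted homologous recombination genes, none was higher or lower in both lines, and the medians were 0.01 in U10 and -0.18 in U100. BRCA1 had 28.5 CPM in UWB1.289, 28.7 CPM in U10 and 28.3 CPM in U100, and these counts say nothing of the protein or of the reading frame. BRCA2 had 170, 177 and 121 CPM. PALB2, which joins BRCA1 to BRCA2, was past 2-fold in U10 alone, with 29.1, 84.7 and 34.8 CPM. In the 53BP1-shieldin and end-joining list, 1 of 24 was lower in both: STN1, a subunit of the CST complex that fills in resected ends, had 21.2 CPM in UWB1.289, 6.73 CPM in U10 and 8.24 CPM in U100, 3.15-fold (2.40 to 4.17) and 2.57-fold (2.04 to 3.25) lower. TP53BP1 had 63.2, 52.6 and 40.7 CPM, and SHLD2, a shieldin subunit, had 23.4, 20.3 and 9.15 CPM, past 2-fold in U100 alone. RIF1, MAD2L2, SHLD1 and SHLD3 had log2 fold changes between -0.57 and 0.42 in either line.

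None of 29 counted fork protection and checkpoint genes and none of 11 counted ABC drug transporters was called in both lines. Of all counted genes, 3.17% were higher and 1.12% lower, so few calls would come in lists this short. SLFN11, a helicase-like protein known to sensitize cells to replication stress, had 11, 4 and 35 counts, and EZH2 had 70.5, 71.7 and 76.4 CPM. ABCB1, the P-glycoprotein gene known to export olaparib, had 13, 2 and 12 counts, and its mean over the libraries was under 1 CPM, so that it was not counted. By its counts it was 5.74-fold lower in U10 (1.30 to 52.4) and stood in U100 at 0.818 times the parental level (0.341 to 1.95). ABCG2 had 3.96, 4.78 and 2.82 CPM. PARP1, the main target of olaparib, had 416 CPM in UWB1.289, 378 CPM in U10 and 527 CPM in U100, and PARP2 had 61.0, 56.8 and 61.9 CPM. PARG, which removes poly(ADP-ribose), had 26.8, 30.7 and 25.2 CPM.

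**Figure D5:**
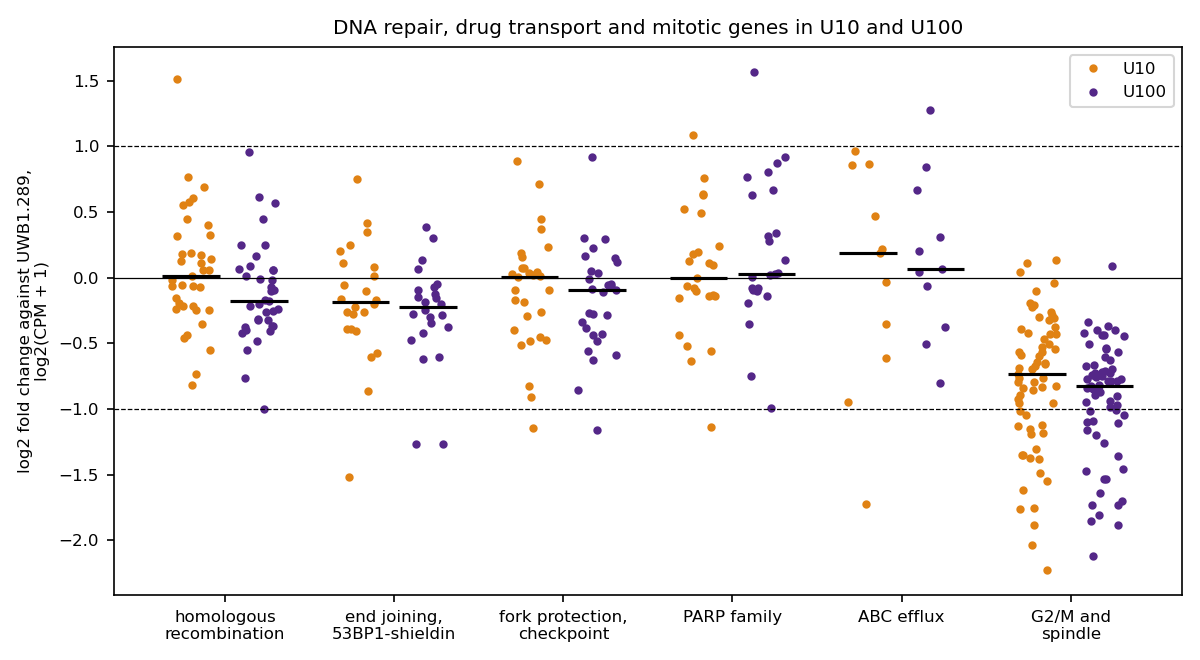
Log2 fold change against UWB1.289, log2(CPM + 1), of the counted genes of 6 lists in U10 (orange) and U100 (purple), each point a gene, black bars the list medians and dashed lines 2-fold. The repair, PARP and transporter lists have medians between -0.22 and 0.18, and the G2/M list has medians of -0.73 and -0.83.

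Called genes also stood next to each other on the chromosomes, and all positions are those of GENCODE on GRCh37 (hg19). The longest stretch of adjacent counted genes that were all higher in both lines held 6, RASSF6, CXCL8, CXCL1, CXCL5, CXCL3 and CXCL2, at chr4:74437267-74964913, the CXC chemokine cluster. The next held SSC4D, ZP3, DTX2 and UPK3B at chr7:76018651-76145839, where ZP3 and UPK3B have partial copies nearby that can share reads. Stretches of 3 included CMPK2, RSAD2 and RNF144A at chr2:6980701-7208417 and IL1A, IL1B and IL1RN at chr2:113531502-113891593. CMPK2 and RSAD2 are an interferon-induced pair, at 2.84, 14.1 and 14.6 CPM and at 1.291, 7.61 and 7.55 CPM. A further stretch held CLDN1, CLDN16 and IL1RAP at chr3:190023496-190377539, of which CLDN1, a tight junction protein, rose from 462 CPM to 1712 and 1264 CPM. There were 5 stretches of 3 and 35 pairs among the higher genes, and 10 pairs and no longer stretch among the lower genes. With 463 higher and 163 lower genes, more stretches can form among the higher, and the number due to placement alone was not computed.

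The same lists were then read in each of the other 8 resistant lines of the series against its own parental line, 1 library per line except HepG2, HepG2S3, HCC4006ER and HCC4006P1, which had 2 that were averaged. In gefitinib-resistant HCC4006GR lung cells, 28 of 30 counted inflammatory genes and 32 of 42 interferon-stimulated genes were at least 2-fold higher than in HCC4006P2 and none lower, where 7.67% of all genes were higher and 7.48% lower. In gefitinib-resistant HCC827GR lung cells, 17 of 29 inflammatory genes were higher and 2 lower, and 1 of 37 interferon-stimulated genes was higher and 6 lower (10.5% and 7.79% of all genes). In 5-fluorouracil-resistant PancB1V pancreatic cells, 18 of 30 inflammatory genes were higher and 1 lower, and 1 of 41 interferon-stimulated genes was higher and 20 lower (8.72% and 7.24% of all genes). Inflammatory genes were thus mostly higher in these 3 lines, and interferon-stimulated genes in HCC4006GR.

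In PancB1Q, also resistant to 5-fluorouracil, 4 of 27 inflammatory genes were higher and 7 lower, and none of 41 interferon-stimulated genes was higher and 27 were lower (6.14% and 9.41% of all genes). In cisplatin-resistant IGROV-1/CDDP, the other ovarian line, 2 of 13 inflammatory genes were higher and 3 lower, and 4 of 28 interferon-stimulated genes were higher and none lower (5.5% and 7.19% of all genes). In erlotinib-resistant HCC4006ER lung cells, 3 of 20 inflammatory genes were higher and 5 lower, and 7 of 41 interferon-stimulated genes were higher and 11 lower (17% and 10.9% of all genes). HCC4006P1 replicate 2 was also taken as the only parental library, a choice made after seeing the data. There 4 of 19 inflammatory genes were higher and 4 lower, and 7 of 41 interferon-stimulated genes were higher and 5 lower (15.1% and 9.77% of all genes). Both sorafenib-resistant HepG2 liver lines had many differences in each direction: in HepG2S1, 9 of 22 inflammatory genes were higher and 9 lower, and 13 of 35 interferon-stimulated genes were higher and 11 lower (25.8% and 18.3% of all genes), and in HepG2S3 these were 9 and 8 of 22 and 16 and 9 of 35 (27.5% and 17.4%).

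Of the 65 G2/M genes, 63 were lower in HCC4006GR (7.48% of all genes) and 49 in HCC827GR (7.79%), with none higher. In HepG2S1 and in HepG2S3 61 were higher (25.8% and 27.5% of all genes) and none lower. In the remaining lines between 1 and 8 were higher and between 0 and 9 lower, beside 5.5% to 17% and 7.19% to 10.9% of all genes. The 9 lower were in HCC4006ER, which had 0 higher and 6 lower with HCC4006P1 replicate 2 alone. Of the genes higher in both U10 and U100 that were counted in each pair, 154 of 364 were higher and 27 lower in HCC4006GR (7.67% and 7.48% of all genes). These were 101 and 39 of 311 in HCC827GR (10.5% and 7.79%) and 104 and 55 of 336 in PancB1V (8.72% and 7.24%). In HCC4006ER they were 122 and 70 of 334 (17% and 10.9%). With HCC4006P1 replicate 2 alone they were 129 and 56 of 324 (15.1% and 9.77%). In PancB1Q 68 of 321 were higher and 80 lower (6.14% and 9.41%), and in IGROV-1/CDDP 65 and 45 of 285 (5.5% and 7.19%). In HepG2S1 they were 111 and 115 of 311 (25.8% and 18.3%) and in HepG2S3 118 and 110 of 307 (27.5% and 17.4%). The set lay above the share of all genes in both directions in each pair but HCC4006GR, where 7.42% were lower. Whether these shares differ between the resistant lines was not tested.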

How the data were processed

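Per the labels, RNA from 3 cultured lines was made into libraries with a strand-marking poly(A) kit, and the authors trimmed and mapped single-end reads to hg19 with Bowtie and TopHat and counted them with HTSeq. The strand setting of the counting is not given in the sources used here, so antisense pairs are uncertain. The deposited values are raw counts per Ensembl gene. Rows that name no gene were left out: reads in no feature made 8.60% to 9.68%, ambiguous reads 2.72% to 2.83% and reads with several positions 23.2% to 25.4% of each library. Of 53515 genes, 45100 (84.3%) were matched to GENCODE on GRCh37, and 762 of the counted genes were not.

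CPM, log2(CPM + 1) differences and exact binomial intervals of count ratios were computed in Python 3.11.15 (scipy 1.17.1), after a check on simulated counts. Library sizes from TMM (edgeR 4.0.16) and size factors from DESeq2 1.42.0, other pseudocounts, minimums and folds were the alternatives. With 1 library per line no test was run. The members and gene lists were chosen with earlier results of these data known. Named genes were the 12 protein-coding and 3 other genes with the largest smaller change in each direction, up to 4 called genes per list, 20 genes of resistance and EMT and the members of runs; others were named after their values were seen. Values of 2 genes of these lists are not reported here.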

Additional observations from a re-analysis of the deposited data

Results flagged for a closer look

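PARP1, the target of olaparib, moved in opposite directions in the resistant lines. UWB1.289 had 416 CPM (4837 counts), U10 378 CPM (3879 counts) and U100 527 CPM (6914 counts), log2 fold changes of -0.14 in U10 and 0.34 in U100. Each counting interval lay beyond 0, on opposite sides, and both changes were under 2-fold. The difference between the lines was not tested against replicates, because each line had 1 library.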

How the results depend on the processing

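No paired analysis was possible because each of the 3 lines had 1 library, and for the same reason no library could be left out. The main counts were 463 genes higher and 163 lower in both lines. A pseudocount of 5 CPM gave 197 and 84, a minimum mean of 10 CPM 274 and 94, a threshold of 1.5-fold 1181 and 626, and one of 4-fold 58 and 15; each of these settings is looser or stricter by construction. The counts stayed within 1.5 times with a pseudocount of 0.1 CPM (694 and 240), TMM library sizes (455 and 173), DESeq2 size factors (434 and 177) and no minimum (464 and 172). Under DESeq2 size factors 426 of the 434 and 161 of the 177 were genes of the main result, under TMM 443 of 455 and 161 of 173. Of 244 log2 fold changes of named genes, the sign held for all 244 with either pseudocount and for 243 with either scaling. Of the 206 past 2-fold, 206 stayed past it with a pseudocount of 0.1 CPM, 160 with 5 CPM, 204 with TMM and 202 with DESeq2. The inflammatory list had 16 to 19 and the interferon list 11 to 18 genes higher over the pseudocounts and scalings, and the G2/M list 15 to 17 lower. Under either scaling 1 of 13 epithelial EMT genes was lower in both, against none in the main result. Counting error does not cover the spread between cultures, which these libraries cannot show.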

Other observations

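Ligands, receptors and matrix enzymes of other pathways also moved in both resistant lines. INHBA, a subunit of activin A, rose from 88.7 CPM in UWB1.289 to 278 CPM in U10 and 259 CPM in U100, while the BMP target ID3 fell from 63.1 CPM to 26.3 and 27.5 CPM and SMAD9, a BMP signal transducer, from 21.2 CPM to 7.99 and 7.78 CPM. Of 28 counted TGF-β, BMP and activin genes, 2 were higher and 3 lower, where 3.17% and 1.12% of all counted genes were. GAS6, the ligand of AXL, rose from 39.8 CPM to 398 CPM in U10 and 103 CPM in U100, the 1 called gene of 30 receptor tyrosine kinases and ligands, close to the share of all genes. Of 26 matrix proteases and inhibitors, MMP7, TIMP3, ADAMTS5 and ADAMTS9 were higher and none lower, and MMP7, which degrades basement membrane, rose from 3.27 CPM to 11.1 and 39.1 CPM. ITGA6, a laminin-binding integrin, fell from 210 CPM to 49.1 and 93.1 CPM, and TJP1, the tight junction scaffold ZO-1, from 140 CPM to 59.96 and 58.97 CPM. BCL2, an inhibitor of apoptosis, rose from 3.87 CPM to 15.99 and 11.4 CPM.

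Named after their values were seen, the chaperone genes HSP90AA1, HSPA1A and HSPA1B fell in both lines, HSP90AA1 from 3237 CPM to 1296 and 1537 CPM. HSPA1A and HSPA1B are near-identical and their split is uncertain. TERT, the telomerase catalytic subunit, and CD47, a signal that restrains phagocytosis, were among the genes that rose. Of 22 counted HOX genes, 10 were at least 2-fold higher in U100 (6.4% of all counted genes) and none lower. Among them HOXB2, HOXD11 and HOXD13 were under 1 CPM in UWB1.289 and U10 and passed the minimum mean only through U100. In U10 none was higher and 4 were lower (4.97% of all counted genes): HOXA3 had 10.8, 2.34 and 8.24 CPM, HOXC4 5.33, 0.293 and 4.04 CPM, HOXC13 3.18, 0.488 and 1.60 CPM and HOXD3 5.33, 1.95 and 10.2 CPM. HOXB9 had 3.96 CPM in UWB1.289, 3.02 CPM in U10 and 18.6 CPM in U100. That difference between the lines was not tested.

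Chromosome 10 held 23 genes lower in both lines among 550 counted (4.18%), against 1.12% of all counted genes, and 13 higher (2.36%). Its median log2 fold change was -0.18 in U10 and -0.17 in U100, against -0.01 and 0.07 over all genes. STN1, COL13A1, MKI67 and KIF11 are among the 23. Chromosome 15 held 10 lower among 413 counted (2.42%) and 7 higher (1.69%), with medians of -0.09 in U10 and -0.35 in U100. DNA copy number was not analysed here. The paper sequenced the genomes of all pairs at low coverage and reports small differences between resistant and parental lines, except in the HepG2 pairs.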
